A study of Homo sapiens with 18 samples.

Results

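Translational efficiency, the number of ribosome footprints on a gene's mRNA relative to the amount of that mRNA, was compared between SH2 hairpin cells and scramble (SC) cells. The comparison covered the 12531 genes, of 17017 in the table, whose counts passed a filter on low values. It set 12 of the series' 18 libraries against each other. The libraries of a further hairpin, SH3, entered the same fit for filtering, scaling and the estimate of spread. All cells were MDA-MB-231, an established line of triple-negative breast carcinoma with mesenchymal features. They had been transduced with a lentiviral short hairpin vector and selected with puromycin. SC carried a scramble hairpin, and SH2 and SH3 each carried a hairpin against the mRNA of fibrillarin (FBL). The labels do not say which of these is the first and which the second knockdown of the protocols. Before lysis, cells of all 3 treatments were given cycloheximide, an inhibitor that holds elongating ribosomes in place. Part of the lysate served as cytoplasmic RNA (IN), while RNase I digestion and sucrose gradients gave monosomes from the remainder, whose protected fragments are the footprints (RPF). Each treatment had 3 libraries of each kind. The labels do not say whether the replicates were separate cultures, so p-values measure only the spread between these samples.

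Fibrillarin is a nucleolar enzyme that, guided by box C/D small nucleolar RNAs, puts 2'-O-methyl groups on ribosomal RNA while ribosomes are made. The rate at which an mRNA is translated depends largely on how often ribosomes start on it, and features of its 5' end weigh on that step. The best known class is that of the TOP mRNAs, which begin with a C and a run of further pyrimidines. They encode the ribosomal proteins and several translation factors, and their translation is switched as a group by growth signals through mTORC1 and the binding protein LARP1. When the footprints of a gene stay level while its RNA changes, the change is said to be buffered.

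The libraries of SC and SH2 held 24430219 to 27629488 counts in RNA and 2486598 to 6098648 in footprints, so the footprints were the shallower part of each efficiency value. VIM, a mesenchymal marker, stood between 4965 and 9063 CPM (counts scaled to library size within each kind of library) in these 12 libraries, and ESR1 and PGR, the hormone receptors the line lacks, at no more than 0.324 CPM. Of the other markers set down beforehand as low or absent, FOXA1 and CDH1 stood at no more than 1.14 CPM. GATA3 stood at 3.26 to 13.2 CPM and ERBB2 at 36.5 to 104 CPM, so these markers were not all near 0. FBL RNA stood at 395, 349 and 421 CPM in SC and at 1.25, 4.51 and 11.2 CPM in SH2, and its efficiency did not pass the test (log2 change 1.61, SE 0.69, edgeR adjusted p 0.217). It was called higher with no filter on low counts and with a block by lysate (lowest edgeR adjusted p 0.038), so the FBL result depended on the fit. CPM values of RNA and of footprints are each relative to their own kind of library, so a ratio between them compares treatments and is not an absolute rate.

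The first 20 bases from the listed start site are shown for 6 risers with a pyrimidine run, because the largest group of risers consists of TOP mRNAs, and, for comparison, for PIGW, a riser without one, and a pair whose efficiency fell. They are from RefSeq (GRCh38.p14), 5' to 3', and capitals mark the unbroken pyrimidine run at the start.
RPS27 (chr1:153990762-153990781, + strand): CCTTTCCggcggtgacgacc
RPS3A (chr4:151099628-151099647, + strand): CCCTTTTggctctctgacca
EEF1A1 (chr6:73521013-73521032, - strand): CTTTTTCgcaacgggtttgc
TPT1 (chr13:45341164-45341183, - strand): CTTTTCCgcccgctcccccc
EIF4B (chr12:53006456-53006475, + strand): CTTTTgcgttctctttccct
NOP53 (chr19:47745546-47745565, + strand): CTTCCTTTgacaagatggcg
PIGW (chr17:36534987-36535006, + strand): actcgcggcgcggggcgcgc
TMSB4X (chrX:12975110-12975129, + strand): aactcggtggtggccactgc
AXIN1 (chr16:352704-352723, - strand): acttccggacgccgccggcg
The first 6 start with runs of 5 to 8 pyrimidines. PIGW starts with a purine, as do TMSB4X and AXIN1, so these examples do not separate risers from fallers.

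Efficiency changed in 489 of 12531 genes (3.9%) at a Benjamini-Hochberg adjusted p under 0.05 in edgeR's quasi-likelihood test, which is what "called", "rose" and "fell" mean throughout. It rose in 181 (1.44%) and fell in 308 (2.46%), and the median change over all genes tested was -0.019 on the log2 scale. The count was 140 without SC replicate 3, 195 without SH2 replicate 1, 326 without SH2 replicate 2 and 110 without SH2 replicate 3. With only genes of a mean of at least 20 counts in the fit, 48.4% of 496 calls were higher, in place of 37%. When the replicate number was entered as a block within each kind of library, 755 genes were called. With only the SC and SH2 libraries in the fit, 184 genes were called. RNA and footprints were tested separately in the same way. RNA changed in 61.4% of 12710 genes, higher in 3947 (31.1%) and lower in 3858 (30.4%). Footprints changed in 44.2% of 10345 genes, higher in 2174 (21%) and lower in 2402 (23.2%).

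Genes of the ribosome itself gained efficiency. Of the 51 proteins of the large (60S) subunit that were tested, 23 rose and 0 fell, and of the 34 of the small (40S) subunit 13 rose and 0 fell, beside 1.44% and 2.46% of all genes. At an unadjusted p under 0.05, 33 of the 60S genes were higher and 0 lower and 22 of the 40S genes higher and 1 lower, and DESeq2 called 29 and 13 higher and 0 lower in both. The median log2 changes were 0.57 and 0.47, and 43 and 30 of them lay above 0. The RNA of 48 and 32 of them fell, beside 30.4% of all genes tested in RNA. The RNA medians were -0.68 and -0.57, while the footprint medians were -0.059 and -0.094. Without SH2 replicate 3 the count of 60S risers was 11, and without SH2 replicate 1 that of 40S risers was 7. Pseudogene copies of these genes are common, and the handling of reads that match both is not given in the sources used here, so their levels are uncertain.

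RPS27, a 40S protein with a zinc finger, showed the highest change of any ribosomal protein gene. Its RNA stood at 629, 571 and 625 CPM in SC and at 191, 236 and 180 CPM in SH2. Its footprints stood at 403, 316 and 311 CPM in SC and at 389, 328 and 373 CPM in SH2. The RNA groups were far apart and the footprint groups overlapped, so efficiency rose by 1.65 (log2, SE 0.17, edgeR adjusted p 4.9e-05). RPS3A, which sits near the mRNA exit side of the 40S subunit, lost more RNA than footprints. RPS3A RNA went from 1865, 1796 and 2095 CPM to 582, 711 and 587 CPM, and its footprints from 996, 1146 and 1099 CPM to 885, 687 and 767 CPM. The footprint groups no longer overlapped, but the fall in footprints (log2 -0.47) was smaller than that in RNA (-1.61).

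In other ribosomal protein genes footprints rose against the RNA. RPL6, a 60S protein, stood at 2680, 2528 and 2886 CPM of RNA in SC and at 1431, 1611 and 1373 CPM in SH2, against footprints of 1520, 1485 and 1274 CPM in SC and 1626, 1879 and 2232 CPM in SH2. Every SH2 footprint library of RPL6 lay above every SC library, and efficiency rose by 1.29 (SE 0.17, edgeR adjusted p 0.00047). RPS4X RNA stood at 778, 777 and 877 CPM and fell to 490, 572 and 504 CPM, while its footprints went from 871, 819 and 846 CPM to 1232, 1151 and 1048 CPM. RPS10 had footprints of 46.9, 137 and 122 CPM in SC and of 158, 235 and 257 CPM in SH2, with RNA of 343, 328 and 370 CPM and then 243, 236 and 240 CPM. SC replicate 1 was the low library for RPS10 footprints: the efficiency change was 1.64 with it and 1.30 without it, and the call ended without SH2 replicate 3 (1.51, edgeR adjusted p 0.069, the alternatives spanning 3.329e-05 to 0.069). RPL37 (1.10), RPL23A (1.14), RPL4 (0.95), RPS16 (0.97) and RPS18 (0.95) also rose and stayed called in each of the 16 alternatives that kept the threshold, as did RPS27, RPS3A, RPL6 and RPS4X. At the low end, RPL36A (-0.67) and FAU (-0.63), which encodes a 40S protein fused to a ubiquitin-like part, did not pass the test. FAU was called lower with the replicate number as a block within each kind (-0.61, edgeR adjusted p 0.039) and without SC replicate 1 (-0.82, edgeR adjusted p 0.033).

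Of 22 further TOP mRNAs tested, 8 rose in efficiency (36.4%, beside 1.44% of all genes) and 0 fell (beside 2.46%). The median was 0.39, with 17 above 0 (DESeq2 10 and 0, unadjusted p under 0.05 in 12 and 1). EEF1A1 encodes the elongation factor that brings aminoacyl-tRNAs to the ribosome and is among the most abundant mRNAs of the cell. EEF1A1 RNA stood at 21620, 19840 and 24360 CPM in SC and at 16570, 15760 and 16130 CPM in SH2. Its footprints rose from 18240, 30640 and 29190 CPM to 35940, 44260 and 37720 CPM, with no overlap in either measure. The low SC value was again that of replicate 1, and without that replicate the efficiency change of EEF1A1 was 0.86 in place of 1.03, still called. EIF3L, a subunit of the initiation factor eIF3, was tight in all groups, with RNA of 173, 188 and 188 CPM in SC and 104, 121 and 101 CPM in SH2. EIF3L footprints stood at 142, 161 and 152 CPM and at 204, 207 and 211 CPM, and efficiency rose by 1.197 (SE 0.14, edgeR adjusted p 0.000167). Its fellow subunit EIF3H rose by 0.79, and EIF4B, which helps the helicase eIF4A to unwind mRNA, rose by 0.89 from RNA of 585, 508 and 591 CPM and then 426, 435 and 441 CPM. TPT1, the translationally controlled tumour protein, kept its footprints (697, 693 and 715 CPM in SC, 708, 620 and 664 CPM in SH2) while its RNA fell from 1395, 1250 and 1449 CPM to 623, 635 and 592 CPM. Not every TOP mRNA moved: PABPC1, the poly(A)-binding protein, was the lowest of the list at -0.36 and did not pass the test. Without SC replicate 3, 5 genes of the list were called.

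**Figure D1:**
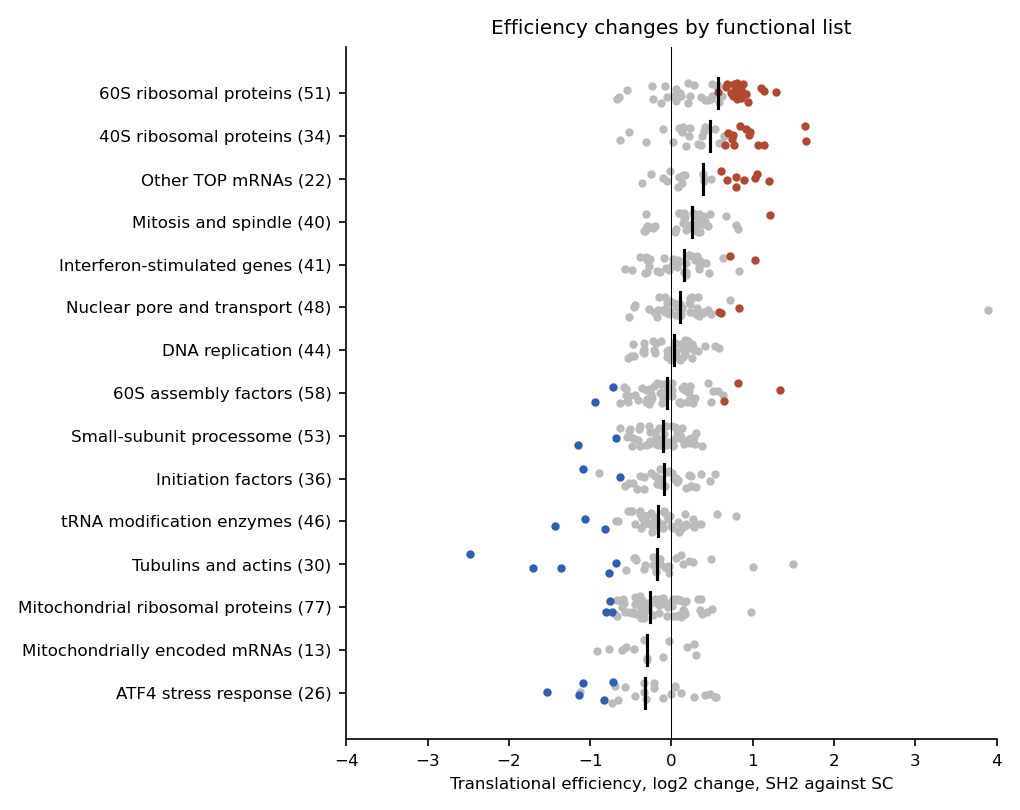
Log2 change of translational efficiency, SH2 against SC, for the tested members of 15 functional lists (number of tested genes in parentheses). Each point is 1 gene, red if it rose, blue if it fell and grey if it did not pass an edgeR adjusted p of 0.05, and the black bar is the list median; red points gather in the 3 upper lists, and the largest groups of blue points lie in the cytoskeletal and ATF4 lists.

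Proteins that build the ribosome gave few calls, set here beside 1.44% of all genes rising and 2.46% falling. Among 53 tested members of the small-subunit processome 0 rose and 2 fell (3.77%) by edgeR (median -0.11). There were 0 and 4 by DESeq2, 1 and 9 at an unadjusted p under 0.05, and 0 and 4 with the replicate block within each kind. Among 58 factors for 60S assembly and export 3 rose (5.17%) and 2 fell (3.45%), with a median of -0.055. Here there were 7 and 4 by DESeq2, 7 and 10 at an unadjusted p under 0.05, and 5 and 3 with that block. NOP53, which guides late steps of 60S assembly and starts with a pyrimidine run, rose by 1.34 (SE 0.21, edgeR adjusted p 0.00151). Here the RNA groups overlapped, at 160, 134 and 174 CPM in SC and 136, 137 and 156 CPM in SH2, and the footprints rose from 58.9, 53.9 and 62.1 CPM to 139, 118 and 154 CPM. XPO1, the export receptor that carries 60S subunits and many proteins out of the nucleus, lost RNA (308, 354 and 313 CPM, then 135, 160 and 112 CPM) and less of its footprints, and rose by 0.64. NVL, an ATPase of 60S assembly, rose by 0.81. EBNA1BP2 (-0.94) and DDX27 (-0.72), both of the 60S pathway, fell, as did TSR3 (-1.15), an enzyme that modifies the RNA of the small subunit, and RRP7A (-0.68). The XPO1 call ended without SC replicate 2 or 3 and without SH2 replicate 1 or 3 (edgeR adjusted p 0.061 to 0.13), NVL was called in 8 of 16 alternatives, and EBNA1BP2 was not called with SH2 replicate 3 left out (-0.82, edgeR adjusted p 0.089).

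Among 12 tested proteins of fibrillarin's box C/D particle and of its assembly, 2 rose and 0 fell by edgeR. That is 16.7% higher, beside 1.44% higher and 2.46% lower over all genes, and the list median was -0.024. DESeq2 called 2 and 1, and 2 were higher and 2 lower at an unadjusted p under 0.05. NOP58 (0.090) and SNU13 (0.078), further proteins of the particle, did not pass the test. NOP56, which binds FBL directly in the particle, had footprints of 229, 171 and 172 CPM in SC and of 393, 382 and 368 CPM in SH2. NOP56 RNA moved little, from 292, 305 and 325 CPM to 345, 351 and 374 CPM, so efficiency rose by 0.77 (SE 0.17, edgeR adjusted p 0.0147). That call ended without SC replicate 3 (0.66, edgeR adjusted p 0.097) and without SH2 replicate 1 (0.72, edgeR adjusted p 0.065). The other riser, TAF9 (0.77), went with an RNA change of -1.08. TAF9 was called in 11 of 16 alternatives at the same threshold, and its call ended without SC replicate 3 and without any 1 of the SH2 replicates.

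Single genes outside these lists stood at the top of the ranking. LRRC8B, a subunit of volume-regulated anion channels, had the highest change of the genes with a mean of at least 20 footprint counts (1.88, SE 0.30, edgeR adjusted p 0.00177). LRRC8B RNA stood at 17.9, 22.0 and 20.0 CPM in SC and at 6.71, 8.96 and 9.53 CPM in SH2, and its footprints, from 8 to 29 counts per library, at 4.55, 3.37 and 4.97 CPM and at 5.55, 6.76 and 8.74 CPM. Neither measure overlapped between groups. PIGW, an acyltransferase of the pathway that makes GPI anchors, rose by 1.57 with RNA of 37.9, 34.9 and 34.1 CPM in SC and 15.4, 20.2 and 15.1 CPM in SH2, and footprints of 7.96, 11.8 and 11.9 CPM and then 15.6, 12.1 and 16.8 CPM. CYP2R1, the vitamin D 25-hydroxylase, rose by 1.34. LRRC8B, PIGW and CYP2R1 stayed called in all 16 alternatives at the same threshold, whereas TMC5 (1.49), B4GALT6 (1.36), PIGP (1.35) and FUT10 (1.30) were called in 8 to 10 of them.

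Loss of efficiency reached actin-binding proteins. Of 30 tested genes in a list of tubulins, actins and their small partners, 5 fell and 0 rose, with a median of -0.18, beside 2.46% lower over all genes. DESeq2 called 7 lower and 0 higher, and at an unadjusted p under 0.05 there were 8 and 1. The 5 were not tubulins or actins but thymosins, which hold actin monomers, profilin, which loads them onto filaments, and tropomyosins, which coat filaments. TMSB4X (thymosin beta 4) RNA stood at 1007, 889 and 1031 CPM in SC and at 575, 505 and 496 CPM in SH2. TMSB4X footprints stood at 3556, 1384 and 1672 CPM in SC and at 444, 340 and 326 CPM in SH2, and efficiency fell by 1.70 on the log2 scale (SE 0.33, edgeR adjusted p 0.00569). TMSB10 kept its RNA (542, 494 and 531 CPM, then 598, 471 and 579 CPM) and its footprints fell from 1597, 787 and 869 CPM to 466, 456 and 435 CPM, an efficiency change of -1.35. PFN1 footprints went from 2956, 2351 and 2553 CPM to 1625, 1691 and 1625 CPM at level RNA, with an efficiency change of -0.77. TPM1 (-0.68) and TPM2 (-2.48) fell as well, TPM2 from 1 to 80 footprint counts per library. Without SH2 replicate 3 only 1 of the list's genes was called.

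SC replicate 1 stood above the other SC footprint libraries for several genes of small proteins. PTMS (parathymosin, a small acidic nuclear protein) had footprints of 253, 108 and 127 CPM in SC and of 48.1, 41.5 and 31.7 CPM in SH2, at overlapping RNA of 79.0, 70.3 and 81.3 CPM and 72.8, 58.0 and 75.2 CPM. TMA7, a small protein found with the translation machinery, had footprints of 196, 98.2 and 104 CPM and then 38.5, 36.6 and 28.8 CPM. Their efficiency changes were -1.88 and -1.68. Without SC replicate 1 the values were -1.40 for PTMS, -1.27 for TMA7, -1.17 for TMSB4X and -0.97 for TMSB10, each still called, and all 3 SH2 libraries lay under all 3 SC libraries in each case. The part of this library in the sizes was otherwise not tested.

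DNAH14, an axonemal dynein heavy chain, had the lowest change of the genes with a mean of at least 20 footprint counts. DNAH14 footprints stood at 21.8, 23.6 and 22.0 CPM in SC and at 3.33, 2.33 and 2.27 CPM in SH2, beside RNA of 34.4, 36.8 and 35.4 CPM and of 15.6, 21.6 and 14.8 CPM. Both measures fell without overlap, the footprints further, so efficiency changed by -2.08 (SE 0.29, edgeR adjusted p 0.00047). AXIN1, the scaffold of the complex that marks beta-catenin for destruction, had footprints of 18.4, 15.2 and 16.5 CPM and then 7.41, 5.36 and 9.71 CPM, with overlapping RNA of 73.8, 58.5 and 64.7 CPM and 69.6, 76.6 and 93.9 CPM. AXIN1 efficiency changed by -1.51. ZNRF1 (-1.75), a ubiquitin ligase, and BRPF3 (-1.55), a scaffold of histone acetyltransferases, were called in every alternative at the same threshold along with DNAH14, AXIN1, PTMS, TMA7 and TMSB4X. KMT5A, which adds a single methyl group to histone H4, changed by -1.26 (-0.90 without SC replicate 1), and LSM4, a core protein of spliceosomal and decay particles, by -0.80.

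**Figure D2:**
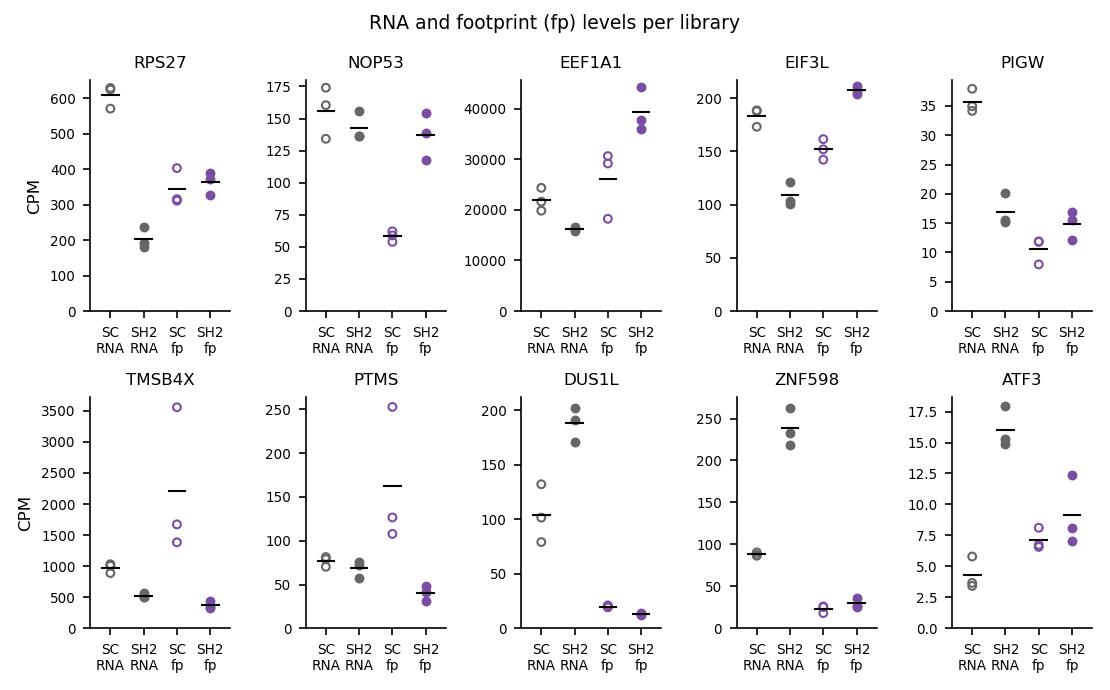
RNA (grey) and footprint (fp, purple) levels of 10 genes in CPM, linear axes from 0; open circles are the 3 SC libraries, filled circles the 3 SH2 libraries and bars the means of each group. RPS27 keeps its footprints as RNA falls, EEF1A1 and EIF3L gain footprints as RNA falls, TMSB4X and PTMS lose footprints with 1 high SC library, and DUS1L, ZNF598 and ATF3 gain RNA without a matching gain of footprints.

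ATF4 is the transcription factor of the integrated stress response, and of 26 tested genes in its list 5 fell in efficiency (19.2%, beside 2.46% of all genes) and 0 rose (beside 1.44%), with a median of -0.33. DESeq2 called 5 lower and 1 higher, the replicate block within each kind gave 6 and 1, and at an unadjusted p under 0.05 there were 9 and 2. In 4 of the 5, RNA rose without a matching gain of footprints. ATF3, a factor induced by many stresses, had RNA of 5.80, 3.67 and 3.42 CPM in SC and of 17.9, 15.3 and 14.9 CPM in SH2. ATF3 footprints overlapped, at 8.12, 6.74 and 6.57 CPM and at 7.04, 12.3 and 8.09 CPM, and efficiency changed by -1.53 (SE 0.34, edgeR adjusted p 0.0167). SESN2, a sestrin that restrains mTORC1, had RNA of 20.7, 13.3 and 16.2 CPM and then 39.5, 41.3 and 52.7 CPM, with footprints of 12.01, 13.5 and 11.4 CPM and then 10.4, 15.8 and 17.5 CPM (efficiency -1.14). CEBPB, a bZIP factor that pairs with ATF4, went from 104, 94.0 and 102 CPM of RNA to 175, 193 and 200 CPM, and its efficiency changed by -1.09. The pseudokinase TRIB3 (-0.72) had the same course in RNA (log2 1.01), while PSPH (-0.84), which completes serine synthesis, fell in RNA (log2 -1.12) and further in footprints (-1.93). ATF4 itself, named here after its values were seen, changed by -0.21 and did not pass the test. Without SC replicate 3 none of the 5 was called by edgeR (adjusted p 0.061 to 0.13), at changes of -1.46 for ATF3, -1.17 for SESN2, -1.09 for CEBPB, -0.73 for TRIB3 and -0.86 for PSPH.

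Of 77 tested mitochondrial ribosomal proteins 3 fell by edgeR, a share of 3.9% that is near the 2.46% of all genes, and 0 rose (1.44% of all genes). The median was -0.26 and 26 of the 77 lay above 0, and with the replicate block within each kind 8 fell and 0 rose. MRPS5 (-0.73) lost RNA and still more footprints, MRPS34 (-0.80) lost footprints at level RNA, and MRPL21 (-0.75) gained RNA at level footprints. MRPL21 RNA stood at 76.0, 67.1 and 73.0 CPM in SC and at 111, 105 and 122 CPM in SH2, with footprints of 105, 118 and 122 CPM and of 101, 102 and 120 CPM. Without SC replicate 3, 0 of these genes were called by edgeR, and with all libraries DESeq2 called 10 lower and 0 higher, beside 23 and 3 at an unadjusted p under 0.05. The 13 mRNAs encoded in mitochondrial DNA all fell in RNA (median -1.52, beside 30.4% of all genes falling) and in footprints (median -1.77, beside 23.2%). Their efficiency changes, from -0.91 in MT-ND6 to 0.30 in MT-ATP8, held 0 calls by edgeR or DESeq2 and 0 unadjusted p under 0.05. The SH2 median of the 13 was -0.31 and the SH3 median 0.42, from the same SC libraries. Among enzymes that modify transfer RNAs, 3 of 46 fell (6.52%, beside 2.46% of all genes) and 0 rose by edgeR (DESeq2 4 and 1, unadjusted p under 0.05 in 6 and 1): the dihydrouridine synthases DUS1L (-1.43) and DUS3L (-0.82), and WDR4 (-1.06), a partner of the 7-methylguanosine methyltransferase. DUS1L kept its call in every alternative at the same threshold, and the other 2 lost theirs without SC replicate 3 (-0.82 and -1.20).

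Translation factors outside the TOP list gave few calls. EIF4G1, the scaffold of the cap-binding initiation complex, changed by -0.63 and its relative EIF4G3 by -1.09, 2 of 36 tested initiation factors (5.56%, beside 2.46% of all genes) with 0 rising by edgeR (DESeq2 3 and 1, unadjusted p under 0.05 in 6 and 2, the replicate block within each kind 3 and 1). That list leaves out the initiation factors placed among the TOP mRNAs, of which EIF3L, EIF3H and EIF4B rose. GSPT1, the GTPase partner of the release factor, changed by -0.69, and ZNF598, the ubiquitin ligase that marks collided ribosomes, by -1.14. They were the calls among 32 tested genes of ribosome stalling and rescue (6.25% lower), whose median was 0.0028, and the block gave 3 lower and 1 higher. Without SH2 replicate 3 the changes were -0.60 for EIF4G1 (edgeR adjusted p 0.069) and -1.10 for EIF4G3 (0.078, edgeR adjusted p). Of 43 tested oncoproteins and cell cycle drivers, MYC (-0.63) and MCL1 (-0.73) fell (4.65%, beside 2.46% of all genes). YBX1, an mRNA-binding protein, rose by 0.70 (2.33% of the list, beside 1.44% of all genes). With the block 5 fell and 1 rose. MYC RNA stood at 182, 158 and 167 CPM in SC and at 270, 248 and 314 CPM in SH2, while its footprints overlapped at 213, 189 and 174 CPM and at 213, 193 and 211 CPM. The MYC call ended whichever of the 6 replicates was left out, with edgeR adjusted p from 0.057 to 0.18. MCL1, a survival protein of the BCL2 family, had footprints of 516, 451 and 516 CPM and then 486, 427 and 444 CPM on RNA of 215, 231 and 244 CPM and then 330, 335 and 372 CPM. BAD, a killer protein of the same family, changed by -1.001, the 1 call among 14 tested genes of a BCL2 family list without MCL1 (7.14% lower, 0 higher). BMF of that list changed by 1.91 and did not pass the test. It was called higher by DESeq2, with no filter on low counts and with the block (1.87, edgeR adjusted p 0.027).

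Cell division genes lost RNA and footprints and gave few efficiency calls, beside 1.44% of all genes rising and 2.46% falling in efficiency. Over all genes tested, RNA fell in 30.4% and footprints in 23.2%. Of 44 tested DNA replication genes 41 fell in RNA (median -0.97) and 0 changed in efficiency by edgeR (median 0.030), where DESeq2 called 1 higher and an unadjusted p under 0.05 was reached by 1 higher and 1 lower. Of 40 tested genes of mitosis and the spindle 39 fell in RNA (median -1.47), 38 of 40 fell in footprints (median -1.18), and 1 rose in efficiency (2 with the replicate block within each kind, 3 without SC replicate 1). The median efficiency change of that list was 0.25, with 32 of 40 above 0, and it was 0.026 without SC replicate 2 and 0.51 without SC replicate 1. No gene of that list fell in efficiency by edgeR or DESeq2, or at an unadjusted p under 0.05. The riser, ASPM, which acts at spindle poles, fell from 155, 241 and 218 CPM to 45.6, 40.9 and 40.8 CPM in RNA and from 49.5, 25.7 and 39.1 CPM to 14.8, 19.6 and 22.3 CPM in footprints. Its efficiency change of 1.21 was close to the threshold (edgeR adjusted p 0.0491). In a bulk lysate, fewer dividing cells and less RNA in each cannot be told apart. Of 48 tested genes of the nuclear pore and of nuclear transport 3 rose (6.25%, beside 1.44% of all genes) and 0 fell (beside 2.46%). The 3 were the pore membrane protein NDC1 (0.83) and the import receptors IPO7 (0.61) and TNPO3 (0.58). Without SC replicate 3 none was called by edgeR. DESeq2 called 4 higher and 0 lower, and 7 and 2 reached an unadjusted p under 0.05.

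Smaller numbers of calls came from other functions, in mixed directions, beside 1.44% of all genes rising and 2.46% falling. In the nuclear-encoded respiratory chain ATP5MF, a subunit of ATP synthase, rose by 1.07 with RNA of 95.7, 91.0 and 92.4 CPM in SC and 46.5, 51.3 and 47.6 CPM in SH2 and overlapping footprints of 44.6, 61.5 and 61.8 CPM and 64.4, 54.1 and 66.0 CPM. COX7A2 of complex IV rose by 0.53 and NDUFB11 of complex I fell by 0.66, the remaining calls among 76 tested genes (2.63% higher, 1.32% lower, median -0.11). DESeq2 called 6 higher and 8 lower in that list, 10 and 13 had an unadjusted p under 0.05, and the replicate block within each kind gave 4 and 4. UCP2, a carrier of the inner mitochondrial membrane, rose by 1.14, in a list of 32 tested oxidative stress genes with 1 riser (3.12%) and 0 fallers. In the proteasome, of 32 tested genes, PSMA1 of the core particle rose by 1.12 (3.12% of the list). The ATPases PSMC2 (-0.52) and PSMC4 (-0.51) of the cap fell (6.25%), and PSMC4 was called in only 4 of the 16 alternatives at the same threshold. Chromatin gave the acetyltransferase CREBBP (-0.89) and the SWI/SNF subunits SMARCA4 (-0.62) and SMARCB1 (-0.62), all falling with higher RNA. They were 3 of 48 tested genes (6.25%), with 0 rising and a median of -0.12 (6 lower with the block). LAMTOR1 (-0.93), RPS6KB2 (-0.84) and MKNK2 (-0.83), proteins of the mTORC1 pathway and its neighbouring kinases, fell, 3 of 36 tested (8.33%, beside 2.46% of all genes) in a list whose median was -0.0019 with 18 above 0. Another faller was ATP6V1G1 (-0.78), a subunit of the proton pump of lysosomes. Its list of 59 tested lysosome and autophagy genes had 2 fallers (3.39%) and 0 risers. IFITM3 (0.72), an interferon-induced membrane protein, rose, in a list of 41 tested interferon-stimulated genes with 2 risers (4.88%) and 0 fallers. Zinc finger genes stayed near the background, with 3 of 412 tested rising (0.728%) and 7 falling (1.7%), and 5 and 8 with the block. Of the genes in this paragraph ATP5MF was called in all 16 alternatives at the same threshold, and without SC replicate 3 the changes were 1.02 for UCP2 (edgeR adjusted p 0.083) and -0.81 for CREBBP (0.16, edgeR adjusted p).

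Relating the 3 tests to each other showed how footprints followed or departed from RNA in the 10335 genes tested in all of them. RNA and footprints were called in the same direction in 3805 genes and RNA alone in 2794. Efficiency was called in 477 of these genes, which fall into 4 kinds. In 204 genes the RNA change was buffered, meaning that efficiency was called against it and footprints were not called against it. In 55 genes footprints opposed RNA, both called and in opposite directions, with efficiency called in 54 of them. In 70 genes efficiency reinforced the RNA change, and in 149 efficiency changed with RNA not called. With the replicate block within each kind in the efficiency test there were 335 buffered, 121 reinforced and 229 of the last kind. The opposed kind rests on the RNA and footprint calls alone, which that fit left as they were. A plain replicate block by number in all 3 tests gave 88 opposed. The tests share libraries, so these counts are a description.

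**Figure D3:**
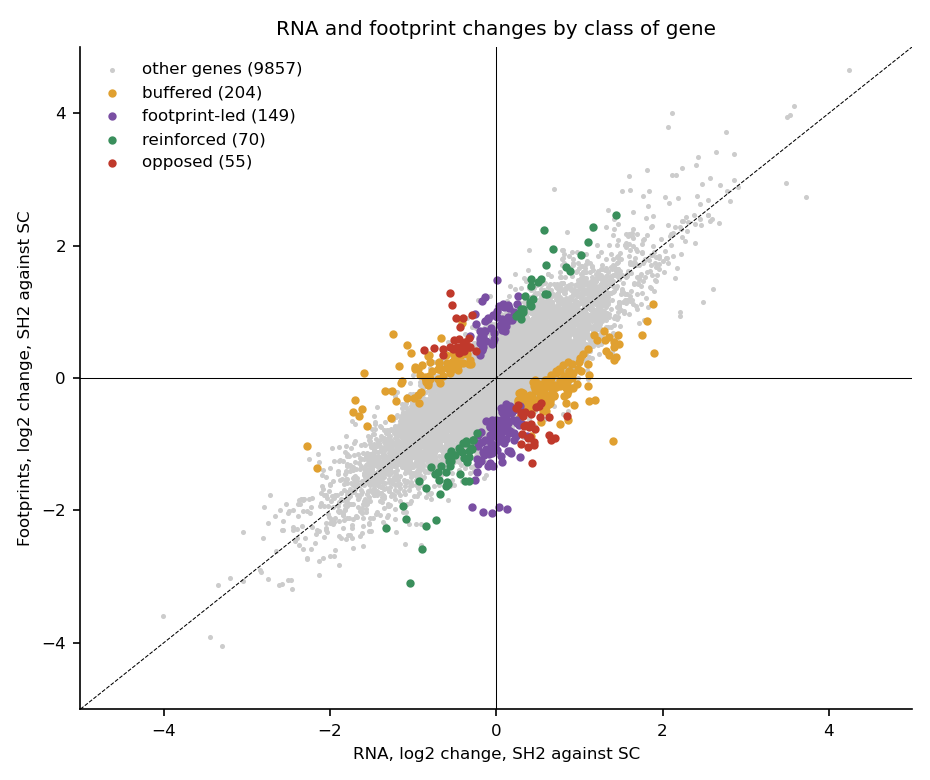
Log2 change of RNA against log2 change of footprints, SH2 against SC, for the 10335 genes tested in both and in efficiency, with 1 gene outside the axes; the dashed line marks equal change. Buffered genes (204, orange) lie along the horizontal line at no footprint change, opposed genes (55, red) at the upper left and lower right, reinforced genes (70, green) beyond the dashed line on the side of larger footprint change, and footprint-led genes (149, purple) near no RNA change.

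Buffering was found in both directions, with 130 genes of higher RNA and 74 of lower RNA. In 185 of the 204, footprints were not called at all, and in 19 they moved with the RNA but less. Ribosomal proteins and other TOP mRNAs made up 31 of the 74 genes with lower RNA, and all 36 ribosomal protein genes that rose in efficiency had lower RNA, 27 of them buffered and 9 opposed. Outside the TOP class, the largest buffered losses of RNA were those of ASPM and of ELK3, an ETS family transcription factor. ELK3 RNA stood at 298, 236 and 272 CPM in SC and at 50.8, 67.3 and 63.2 CPM in SH2, and its footprints fell less, from 77.4, 95.6 and 88.6 CPM to 41.8, 25.4 and 35.9 CPM (efficiency 0.79). MMS22L, which works at stalled replication forks, went from 63.2, 82.2 and 85.7 CPM to 22.6, 27.3 and 23.7 CPM in RNA and from 33.8, 32.9 and 41.4 CPM to 21.1, 21.9 and 29.8 CPM in footprints (efficiency 1.05). Without SH2 replicate 3 the changes were 0.78 for ELK3 (edgeR adjusted p 0.15) and 0.87 for MMS22L (0.099, edgeR adjusted p).

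On the side of higher RNA, buffering was seen in ATF3 and in genes of several unrelated functions. ATG101, a subunit of the complex that starts autophagy, had RNA of 24.9, 24.4 and 24.7 CPM in SC and of 96.1, 80.4 and 96.2 CPM in SH2. Its footprints rose too, but less, from 26.9, 23.6 and 24.7 CPM to 58.9, 57.1 and 47.9 CPM, an efficiency change of -0.78. ZNF598 RNA went from 86.5, 90.5 and 87.5 CPM to 219, 233 and 263 CPM, while its footprints overlapped at 25.3, 18.1 and 26.1 CPM and at 25.2, 27.0 and 36.6 CPM. BRPF3 RNA went from 169, 181 and 174 CPM to 340, 415 and 443 CPM, with overlapping footprints of 43.0, 24.9 and 36.0 CPM and of 28.5, 26.3 and 29.5 CPM. LIMK1, the kinase that switches off cofilin, had RNA of 40.7, 51.3 and 40.7 CPM and then 143, 138 and 165 CPM, and its efficiency change of -1.14 was -0.61 without SC replicate 1 (edgeR adjusted p 0.18). RABL6 (-0.98), UBTD1 (-0.82), EPB41L4B (-0.99) and ZNF777 (-0.90) were of the same kind with RNA changes of 1.42 to 1.81, and each lost its call without SH2 replicate 3. ZNF598 and BRPF3 kept theirs in every alternative at the same threshold, and ATG101 lost its call without SC replicate 3 (-0.80, edgeR adjusted p 0.063) and without SH2 replicate 3 (-0.65, edgeR adjusted p 0.087).

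Footprints opposed a rise in RNA in 29 genes. RFNG, a fringe glycosyltransferase that modifies Notch receptors, had RNA of 18.5, 15.3 and 18.7 CPM in SC and of 27.3, 28.6 and 29.9 CPM in SH2. RFNG footprints, from 11 to 59 counts per library, went the other way, from 9.58, 5.48 and 9.94 CPM to 4.07, 4.89 and 4.86 CPM. DUS1L RNA rose from 132, 79.2 and 102 CPM to 191, 171 and 203 CPM as its footprints fell from 19.5, 21.1 and 19.4 CPM to 12.6, 13.8 and 13.6 CPM. MTLN encodes mitoregulin, a micropeptide of the inner mitochondrial membrane, and gave RNA of 7.35, 7.46 and 9.87 CPM and then 14.5, 10.8 and 13.1 CPM beside footprints of 81.7, 87.6 and 76.9 CPM and then 49.6, 62.2 and 49.9 CPM. PPP1R9B, spinophilin, a protein phosphatase 1 subunit that binds actin, had RNA of 168, 185 and 169 CPM rising to 219, 235 and 267 CPM and footprints of 92.9, 66.6 and 75.3 CPM falling to 55.9, 39.2 and 44.0 CPM. In these 4 genes and in RPS19BP1 (RNA 0.46, footprints -0.96) the SC and SH2 groups did not overlap in either measure, and efficiency was called in every alternative at the same threshold. They were picked for large opposed changes in these same libraries, so the lack of overlap is a description and no separate support. ZNF511 (0.66 and -0.93), AOPEP (0.64 and -0.86) and COA4 (0.53 and -0.59), an assembly factor of cytochrome oxidase, had the same opposed course on the log2 scale.

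Footprints opposed a fall in RNA in 26 genes, of which 13 were ribosomal proteins or other TOP mRNAs. The other 13 included AMD1, which makes the aminopropyl donor for polyamines, with an RNA change of -0.48 and a footprint change of 0.47. FNDC3A had an RNA change of -0.50 and a footprint change of 0.58, and both genes were called in efficiency in every alternative at the same threshold (0.94 and 1.08). SAMD9, an interferon-induced antiviral protein, had changes of -0.56 and 0.47, and its efficiency call (1.02) ended whichever replicate was left out, except SC replicate 2. BLCAP had footprints of 5.84, 16.9 and 12.4 CPM in SC and of 15.2, 21.9 and 24.6 CPM in SH2, which overlapped, and its efficiency change of 1.41 was 0.87 without SC replicate 1 (edgeR adjusted p 0.083).

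Efficiency and RNA rose together in 27 genes and fell together in 43. MANBA, the lysosomal beta-mannosidase, had RNA of 12, 10.1 and 10.6 CPM and then 19.3, 17.3 and 15.9 CPM, and footprints of 9.42, 9.69 and 7.81 CPM and then 31.9, 43.1 and 27.8 CPM. MANBA footprints thus rose further than its RNA (log2 1.96 and 0.68). KDM3A, a demethylase of histone H3 lysine 9, rose from 62.4, 78.3 and 70.6 CPM to 144, 158 and 127 CPM in RNA and from 48.9, 43.0 and 41.5 CPM to 171, 183 and 132 CPM in footprints (efficiency 0.83). HERPUD1 (0.64), a factor of protein disposal at the endoplasmic reticulum, LIF (1.08), a cytokine, and TULP3 (1.00), a carrier of proteins into cilia, were of this kind but lost the call without SC replicate 3, as did MANBA (1.19, edgeR adjusted p 0.055) and KDM3A (0.78, edgeR adjusted p 0.083).

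The SH3 hairpin, compared with the same SC libraries, gave 86 efficiency calls (0.686%), so values of the hairpins are set side by side without a measure of agreement. The SH3 medians were 0.52 for 60S proteins, 0.44 for 40S proteins and 0.44 for the other TOP mRNAs, beside 0.57, 0.47 and 0.39 in SH2, with 12, 7 and 3 genes called higher and 0 lower. RPS27 changed by 0.76 in SH3, EIF3L by 0.76, EIF4B by 1.28 and TPT1 by 1.05. In the ATF4 list the SH3 median was -0.23, with 1 gene called higher and 0 lower, and ATF3 (-0.86) and CEBPB (-0.35) were not called. In the list of tubulins, actins and their small partners the SH3 median was -0.052 with 0 called, beside -0.18 and 5 lower in SH2. PTMS (-0.56), TMA7 (-0.90) and AXIN1 (-0.63) were not called in SH3, and DNAH14 (-2.06) and DUS1L (-1.46) were. A direct test of SH2 against SH3 in the same 18-library fit called 0 of the 200 genes named by rule at an edgeR adjusted p under 0.05, with 70 at an unadjusted p under 0.05, while DESeq2 called 18. With the replicate block within each kind 8 of the 200 were called, and without SC replicate 1 there were 6. RPS27 had the lowest adjusted p of these (difference 0.89, edgeR adjusted p 0.077) without the block. Whether a named gene differs between hairpins thus depended on the fit, and a missed threshold does not show that the hairpins act alike.

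The regions around the start sites of genes that rose held less G and C than those of genes that fell, given here as a description with no test. For the 10189 genes with an entry in the RefSeq table (81.3% of those tested), the GC content of the 300 bases from 250 before to 50 after the start, averaged over listed starts, had a median of 64.7%. The median was 61.3% for the genes that rose, 62.7% for those of them that were neither ribosomal proteins nor in the TOP list, and 69.0% for those that fell. Ranked by GC content into 5 bins of nearly equal size, 1.92% rose and 0.913% fell in the lowest bin, and in the highest 0.494% rose and 4.44% fell. The median efficiency change went from 0.067 in the lowest bin to -0.095 in the highest, and in SH3 from 0.0059 to -0.11. The median RNA change went from -0.055 to 0.050 and the median footprint change from 0.0032 to -0.028. Across genes Spearman's rho of GC content and efficiency change was -0.126, and genes are not independent replicates. Dependence of the libraries on base composition was not tested. Of the 300 bases, 250 lie before the listed start, outside the mRNA that begins there, so these values do not describe the mRNA's 5' end alone.

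**Figure D4:**
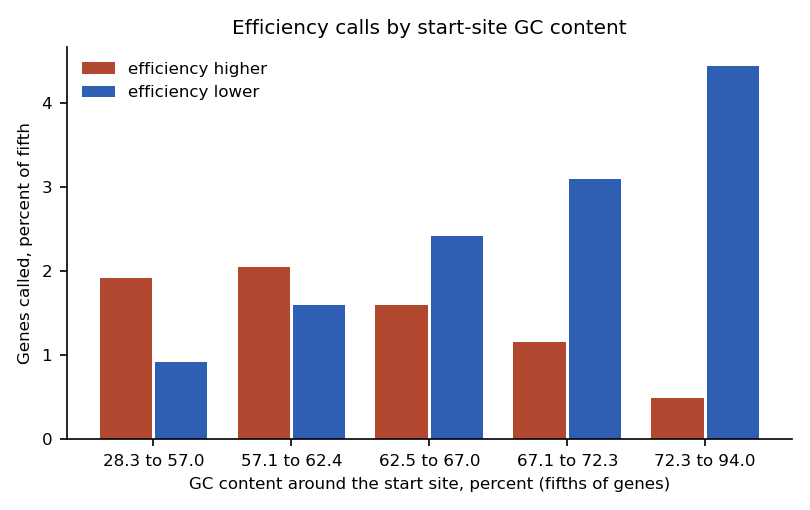
Percent of genes whose efficiency rose (red) or fell (blue) in 5 bins of the 10189 genes ranked by the GC content of the 300 bases around the start site. The share that fell goes up from 0.913% to 4.44% over the bins and the share that rose comes down to 0.494%.

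The letters CTTT were read 5' to 3' in the sense of the mRNA, between 5 bases before and 10 bases after a listed start. They were present in 9.58% of all genes with an entry and in 6.71% of the 35116 start regions of the table. Of the 147 genes with an entry that rose, 22.4% held them, and 9.65% of those that were neither ribosomal proteins nor in the TOP list. Of the genes that fell 5.93% held them, and of the ribosomal proteins 63.2%. Such a match is a description of the letters in that window.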

How the data were processed

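The authors deposited raw, whole-number read counts per gene symbol and library in a table of the whole series (17017 symbols, 16590 of them current), and those counts alone were used. Another 18 columns of per-library values and the authors' own comparisons were left aside. Bowtie 1.2.2 and DESeq2 are named in the submitters' processing notes. Build, annotation and counting rules are not given in the sources used here.

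Efficiency was tested in edgeR 4.0.16 (R 4.3.3) with filterByExpr, TMM scaling and the quasi-likelihood test, in 1 fit of all 18 libraries, as the SH2 footprint-minus-RNA difference less that of SC. RNA and footprints were each fitted over their 9 libraries. Tests were two-sided, with Benjamini-Hochberg adjustment over all genes tested. SE is the absolute log2 change over the square root of F. Coefficients of variation between replicates were 11.6% in RNA and 15.1% in footprints. On simulated counts of 12531 genes the fit recovered 26 of 50 genes doubled and 31 of 50 halved in efficiency, and 49 and 45 of 50 at fold 3 and its inverse, with 4 false calls. The changed genes were drawn from those with a mean of at least 20 footprint counts, so recovery at lower counts is not covered. Simulated libraries were drawn independently, without a replicate effect, so the false calls of the real data may be more.

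The genes and lists were chosen with earlier results of these data known. Genes were named by rule: FBL, the 12 highest and 12 lowest called efficiency changes with a mean of at least 20 footprint counts, up to 8 per direction in the opposed and buffered classes and 5 in the reinforced class by size of change, and of each list its called members (at most 6) and both extremes. Replicate numbers paired SC and SH2 libraries of the same kind, since deviations from the group means correlated in every pair (0.315 to 0.37 in RNA, 0.116 to 0.153 in footprints). Alternatives were other scaling, filters, thresholds, tests, blocks, thinned footprints and left-out replicates, with DESeq2 1.42.0 as the other test. Not every gene named by the rule is described.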

Additional observations from a re-analysis of the deposited data

How the results depend on the processing

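No gene called in efficiency was called in the opposite direction in any alternative. Of the 134 named genes called, 40 kept the call in each of 16 alternatives that left the threshold as it was, and 94 lost it in at least 1, 85 of them without SH2 replicate 3 and 74 without SC replicate 3. DESeq2 called 910 genes in efficiency, 419 buffered, 152 reinforced, 283 footprint-led, 221 list members and 18 hairpin differences. With no filter on low counts 3 hairpin differences were called. Only the SC and SH2 libraries gave 184 efficiency calls, 81 buffered, 11 reinforced, 51 footprint-led and 64 list members (126 in the fit reported). An adjusted p under 0.01 left 100, 53 buffered, 13 opposed, 3 reinforced, 30 footprint-led and 38 list members. A minimum log2 change of 1 left 152 in efficiency, 2336 in RNA, 1798 in footprints, 24 buffered, 0 opposed, 4 reinforced and 38 list members. Footprints thinned to one depth gave 41 reinforced. With genes of a mean of at least 20 counts, 48.4% of efficiency calls were higher, against 37%.

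Leaving out 1 replicate gave 110 (SH2 replicate 3) to 555 (SC replicate 2) efficiency calls, 46 to 229 buffered, 22 to 67 opposed, 8 to 73 reinforced, 32 to 179 footprint-led, 41 to 139 list members and 0 to 6 hairpin differences.

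The replicate block by number within each kind, chosen after seeing the data, gave 755 efficiency calls (484 of the 489 among them), 335 buffered, 121 reinforced, 229 footprint-led, 191 list members and 8 hairpin differences, and ended 2 calls of the 134. A plain replicate block by number gave 516 efficiency calls and 88 opposed. Deviations of footprint and RNA libraries of the same number correlated at -0.354, -0.317 and 0.172 in SC and at -0.209, -0.244 and 0.295 in SH2. In both treatments RNA libraries 1 and 2 correlated best with footprint libraries 2 and 1, and 3 with 3, so pairing by lysate was not shown, and nothing was crossed. That replicate block gave 191 efficiency calls, 80 buffered, 15 reinforced, 52 footprint-led and 76 list members.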

Other observations

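Gene families were also grouped by symbol after the values had been seen, so their counts are a description that supports nothing. Enzymes of GPI anchor and N-glycan assembly (symbols starting PIG or ALG) gave 32 tested genes, of which 4 were called in efficiency by edgeR, all higher (PIGW, PIGP, ALG11 and PIGM), with a median log2 change of 0.39 in SH2 and -0.23 in SH3. Glycosyltransferases and mannosidases gave 6 calls of 38, all higher (B4GALT6, FUT10, MANBA, MANEA, B3GNT5 and B4GALT1), with medians of 0.13 and 0.060. Solute carriers (SLC) gave 7 risers and 1 faller of 205, with medians of 0.15 and -0.20, and TMEM genes 4 calls of 160, all higher, with medians of 0.24 and -0.17. Over all genes tested 1.44% rose and 2.46% fell.

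Regulatory subunits of protein phosphatase 1 (PPP1R) gave 4 calls of 28, all lower, namely PPP1R12C, PPP1R9B, PPP1R14B and PPP1R2, with medians of -0.38 in SH2 and -0.012 in SH3. Among 10 subunits of the anaphase-promoting complex ANAPC15, ANAPC16 and ANAPC13 were the calls, all lower, while the family median was -0.072 in SH2 and -0.11 in SH3 and 5 of the 10 lay above 0 in SH2. The hairpins share the SC libraries, and no family was tested between them.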
